A study of Rattus norvegicus with 10 samples.

Results

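The placebo arm of a study of arthritic rats was examined for the change in tissue microRNAs (miRNAs) between 1 h and 34 days of treatment. It is held in 4 of the 10 small RNA libraries of the study, the 2 titled as placebo at 1 h (PLA_E) and the 2 titled as placebo at 34 days (PLA_A). For each mature miRNA the largest read count over its precursors was taken, and the 359 of 723 listed miRNAs with at least 1 cpm (reads per 1000000 reads on miRNAs) in at least 5 of the 10 libraries were compared. All groups were female Wistar rats with collagen-induced arthritis (CIA), a model in which immunization with bovine type II collagen in adjuvant leads to swollen joints. The placebo rats received weekly saline injections into the peritoneum. The other groups, of 2 libraries each, were rats before therapy (CIA_B) and rats sampled 1 h (MS_E) or 34 days (MS_A) after the start of mechanical stimulation of the skin with a needle, which the labels name AP. The labels call the tissue muscle under the epidermis, the methods describe subcutaneous tissue around the points stimulated in the other arm, and the series text also mentions blood. Rats were killed at sampling, so the 2 times are different animals, and neither the labels nor the methods say whether the 2 libraries of a group come from separate rats. The p-values therefore measure the spread between libraries. Time under placebo, age, course of the arthritis and number of injections cannot be told apart in this comparison.

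A miRNA is cut from a hairpin precursor, whose arms give the products named 5p and 3p, and it represses messages that pair with its seed, bases 2 to 8. miRNAs of the same seed share many targets, and many miRNAs are largely restricted to a lineage, such as miR-142 and miR-150 to blood cells or miR-1, miR-133 and miR-206 to muscle. Others are transcribed together from a cluster of hairpins. Among the largest is the imprinted Dlk1-Dio3 region, transcribed from the maternal chromosome and active in fetal and regenerating muscle.

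The 10 miRNAs that passed the cut-offs used in the study (more than 2-fold change with unadjusted p below 0.05) came from 8 hairpins, and RefSeq held the mature sequence of 9 of them. The sequences are shown with the seed in capitals because they define which of these miRNAs can share targets. Positions are in GRCr8, while the authors aligned the reads to rn4. The arms of miR-142 lie on chr10:73055119-73055139 (5p) and chr10:73055155-73055177 (3p), plus strand.
miR-142-5p: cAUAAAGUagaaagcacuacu
miR-142-3p: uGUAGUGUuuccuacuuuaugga
miR-15b-5p, chr2:155555197-155555218: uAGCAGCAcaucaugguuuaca
miR-15b-3p: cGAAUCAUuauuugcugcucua
miR-16-5p, of the same seed as miR-15b-5p: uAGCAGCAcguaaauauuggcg
miR-342-5p, chr6:133329673-133329694: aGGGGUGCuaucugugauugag
miR-342-3p: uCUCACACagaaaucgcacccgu
let-7f-2-3p, chrX:24460102-24460122: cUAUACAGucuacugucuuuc
miR-215, chr13:99383003-99383024: aUGACCUAugauuugacagaca
miR-409a-5p, chr6:134579198-134579220: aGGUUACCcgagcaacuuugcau
miR-495, chr6:134554103-134554124: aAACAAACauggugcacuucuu
Of the 9, 2 shared their seed with another tested miRNA. miR-15b-5p shared AGCAGCA with 4 others, miR-16-5p, miR-195-5p, miR-322-5p and miR-497-5p, and miR-215 shared UGACCUA with miR-192-5p. The other 7 seeds were found in no other tested miRNA with a sequence. miR-150-3p was also differential.

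The placebo libraries held 5277306 and 3725355 reads on miRNAs at 1 h and 3050255 and 5723107 at 34 days, so that 3 counts corresponded to between 0.402 and 0.828 cpm. Levels below are cpm scaled by the TMM factors of edgeR. The skeletal muscle miRNAs, which check the labelled tissue, were abundant in all 4 libraries, at a summed 182653 and 135172 cpm at 1 h and 189298 and 160720 cpm at 34 days. The libraries were divided within each time. miR-1-3p, a miRNA of heart and skeletal muscle, was at 90905 and 11316 cpm in PLA_E replicates 1 and 2 and at 80416 and 15567 cpm in PLA_A replicates 1 and 2, and miR-206-3p, of skeletal muscle, followed the same division at 15860, 1276, 14652 and 1143 cpm. Libraries of equal replicate number were closer to each other over time than libraries of equal time. The number of tested miRNAs more than 2-fold apart was 51 between the replicates 1 and 74 between the replicates 2, but 115 within PLA_A and more than that within PLA_E.

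From 1 h to 34 days, 10 of the 359 miRNAs tested were differential (2.79%), 7 higher (1.95%) and 3 lower (0.836%) at 34 days. The higher ones were miRNAs of leukocytes (both arms of miR-142, miR-150-3p and miR-342-5p), both arms of miR-15b and let-7f-2-3p. The lower ones were miR-215 and 2 members of the Dlk1-Dio3 cluster, miR-495 and miR-409a-5p. None had an adjusted p under 0.05 (each at 0.999 after Benjamini-Hochberg adjustment of the quasi-likelihood p of edgeR), and the 10 are also all miRNAs with an unadjusted p under 0.05. DESeq2 gave 10 by the same thresholds, 8 of them shared, again with 0 past the adjustment (smallest adjusted p = 0.0661). The split of 7 higher to 3 lower was 4 to 4 with the size factors of DESeq2 in edgeR and 2 to 2 with library size only. Both 34-day libraries lay above both 1 h libraries for 55 miRNAs (15.3%) and below both for 32 (8.91%), among them 4 of the 7 higher and all 3 lower. The median log2 fold change of all tested miRNAs was 0.07.

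**Figure D1:**
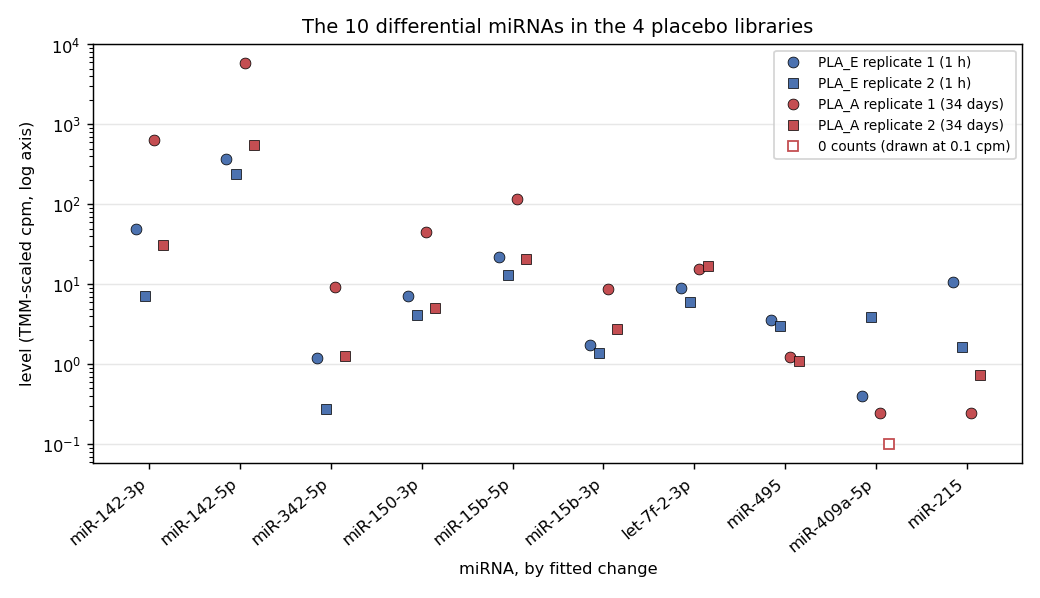
Level of the 10 differential miRNAs (cpm, log axis) in each of the 4 placebo libraries, blue for 1 h and red for 34 days, circles for replicate 1 and squares for replicate 2, with 0 counts drawn as an open square. PLA_A replicate 1 is the highest point for 6 of the 7 higher miRNAs, while let-7f-2-3p and miR-495 have 34-day libraries close to each other and apart from those of 1 h.

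PLA_A replicate 1 stood apart in miRNAs of leukocytes. It exceeded every other library more than 2-fold for 8 miRNAs and was the highest of all 10 for 6 of the 7 higher differential ones. The 8 were miR-142-3p (12.8-fold), miR-142-5p (10.6-fold), miR-150-3p (6.33-fold), miR-342-5p (5.22-fold), miR-150-5p (4.18-fold), miR-342-3p (3.61-fold), miR-92a-1-5p (2.50-fold) and miR-499-3p (2.42-fold), the last of which was chosen after its values were seen. Such an excess was not particular to PLA_A replicate 1. MS_E replicate 1 was more than 2-fold above every other library for miRNAs that included miR-34c-5p and miR-449a-5p. It held them at 1497 and 258 cpm, against at most 17.6 and 3.62 cpm elsewhere. Counted over all tested miRNAs, MS_E replicate 1 was the highest library for 60 and PLA_A replicate 1 for 63. Without this library 3 miRNAs were differential, miR-409a-5p, miR-144-5p and miR-187-3p, of which miR-187-3p lies outside the rule for named miRNAs.

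Of the lymphoid and pan-leukocyte list, 4 of 6 tested members were differential and higher, where 1.95% of all tested miRNAs were, and all 6 were fitted above 0, where 55.2% of all were. miR-142-5p, a miRNA of all blood cell lineages, was at 372 and 240 cpm at 1 h and at 5855 and 551 cpm at 34 days. Its 34-day libraries were both above those of 1 h and lay 10.6-fold apart from each other. The fitted log2 fold change was 3.38 (standard error, SE, 0.94, unadjusted p = 0.00551, adjusted p = 0.999 in edgeR) and 0.87 without PLA_A replicate 1, when it was no longer differential. Its partner arm miR-142-3p was at 49.7 and 7.17 cpm at 1 h and at 636 and 30.8 cpm at 34 days. Here the groups overlapped, since PLA_A replicate 2 was below PLA_E replicate 1, and the log2 fold change of 3.52 (SE 1.34) became 0.14 without PLA_A replicate 1. Arms of one hairpin are cut from the same molecule and do not count as separate evidence.

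miR-150, a miRNA of mature B and T lymphocytes, behaved alike in both arms. miR-150-5p was at 1156 and 456 cpm at 1 h and at 6222 and 527 cpm at 34 days, and its log2 fold change of 2.06 (SE 1.16), which did not pass the test, was -0.59 without PLA_A replicate 1. miR-150-3p was at 7.24 and 4.14 cpm at 1 h and at 45.8 and 5.10 cpm at 34 days. The groups overlapped for both, and the log2 fold change of miR-150-3p, 2.08 (SE 0.89, unadjusted p = 0.0435, adjusted p = 0.999 in edgeR), was -0.14 without PLA_A replicate 1. miR-342 is carried in an intron of Evl and abundant in lymphocytes. miR-342-5p was at 1.21 and 0.276 cpm at 1 h and at 9.22 and 1.28 cpm at 34 days, a log2 fold change of 2.25 (SE 0.97) that was 0.51 without PLA_A replicate 1. miR-342-3p was at 27.9 and 15.7 cpm at 1 h and at 275 and 9.12 cpm at 34 days, so that its PLA_A libraries were the highest and the lowest of the 4. It did not pass the test (log2 fold change 2.68, SE 1.20, or -1.21 without PLA_A replicate 1).

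The summed level of the lymphoid and pan-leukocyte list was 1614 and 724 cpm at 1 h and 13043 and 1124 cpm at 34 days. In the other 6 libraries it lay between 582 and 1769 cpm. The sum moved with the division of the libraries by miR-1-3p, being larger in the library with more miR-1-3p in each of the 5 groups. Among the libraries with less miR-1-3p it was highest in PLA_A replicate 2, against 582 to 765 cpm in the other 4, and among those with more it was highest in PLA_A replicate 1, against 712 to 1769 cpm. The part of this division in the result was not tested beyond fits with a term for it. With the division itself as the term, all 10 differential miRNAs passed. With the replicate number as the term, which divides the placebo libraries alike, 6 of the 10 passed. The ones lost were miR-150-3p, miR-342-5p, let-7f-2-3p and miR-495. The median log2 fold change of the list was 2.46, beside 0.07 for all tested miRNAs, and 0.00 without PLA_A replicate 1. In bulk tissue, more cells of a type and more RNA per cell cannot be told apart. Markers of other blood cells were mixed. The summed myeloid and inflammation-induced list was 8790 and 7165 cpm at 1 h and 8654 and 9317 cpm at 34 days. Of its members, miR-223-3p, of neutrophils and monocytes, was at 52.0 and 25.1 cpm at 1 h and at 43.3 and 45.9 cpm at 34 days, while miR-146a-5p, induced by inflammatory signals, was at 1063 and 1246 cpm at 1 h and at 1830 and 1021 cpm at 34 days, highest of the 4 in PLA_A replicate 1. Both were chosen after their values were seen, and related members of the list had both 34-day libraries below both of 1 h. miR-223-5p was at 1.21 and 1.93 cpm at 1 h and at 0.996 and 0.912 cpm at 34 days. miR-146b-5p, of the same seed as miR-146a-5p, was at 2645 and 1788 cpm at 1 h and at 1433 and 1538 cpm at 34 days. The summed erythroid list was 39.7 and 17.4 cpm at 1 h and 42.6 and 67.5 cpm at 34 days.

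**Figure D2:**
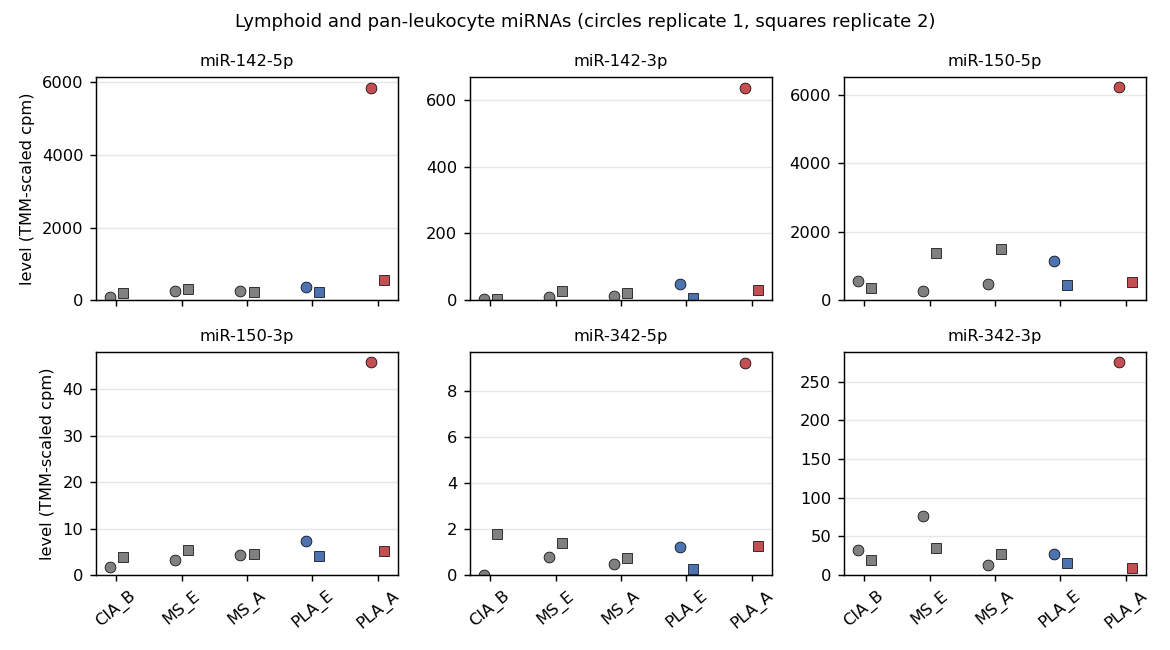
Level (cpm, linear axis from 0) of the 6 tested members of the lymphoid and pan-leukocyte list in the 10 libraries, 2 for each of the 5 groups, with circles for replicate 1 and squares for replicate 2, blue for PLA_E, red for PLA_A and grey for the other groups. In each panel PLA_A replicate 1 is the highest point, from 3.61-fold (miR-342-3p) to 12.8-fold (miR-142-3p) above the next library.

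The list of miR-15/16 hairpins, taken by name with both arms, had 2 of 8 tested members differential and higher (1.95% of all tested miRNAs were) and all 8 fitted above 0 (55.2% of all were). Of these 8, 5 share the seed AGCAGCA, through which the family restrains the cell cycle, and 1 of the 5 was differential. The median log2 fold change of the 5 was 0.62, and 0.02 without PLA_A replicate 1. miR-15b-5p was at 22.2 and 13.2 cpm at 1 h and at 116 and 20.97 cpm at 34 days. Its groups overlapped by a small margin between PLA_E replicate 1 and PLA_A replicate 2, and the log2 fold change of 1.92 (SE 0.78, unadjusted p = 0.0360, adjusted p = 0.999 in edgeR) was 0.25 without PLA_A replicate 1. miR-15b-3p was at 1.74 and 1.38 cpm at 1 h and at 8.72 and 2.73 cpm at 34 days, with no overlap and a log2 fold change of 1.64 (SE 0.64), or 0.69 without that library. miR-16-5p, the most abundant member, was at 5792 and 3491 cpm at 1 h and at 10358 and 4639 cpm at 34 days, with overlapping groups and a log2 fold change of 0.69 (SE 0.62), or 0.02 without PLA_A replicate 1.

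Of the let-7 family, which opposes proliferation and marks differentiated cells, let-7f-2-3p was the differential member among 18 tested, a count near the 2.79% of all tested miRNAs, and 9 of the 18 were fitted above and 9 below 0. It was at 8.98 and 6.07 cpm at 1 h and at 15.7 and 16.8 cpm at 34 days. The 2 libraries of 34 days were nearly equal and both above those of 1 h, with a log2 fold change of 1.07 (SE 0.45, unadjusted p = 0.0424, adjusted p = 0.999 in edgeR). With single libraries left out it lay between 0.80 and 1.36 and was differential in none of the 4 fits. let-7f-5p, the abundant arm, cut from this hairpin and from let-7f-1, was at 10466 and 13413 cpm at 1 h and at 8695 and 14141 cpm at 34 days. let-7a-1-3p and let-7c-2-3p had the same level in each placebo library (42.0 and 35.04 cpm at 1 h, 50.8 and 60.3 cpm at 34 days), so reads could not be divided between them.

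None of the 16 tested members of miR-17/92 and its paralogs, clusters active in proliferating cells, was differential, while 14 were fitted above 0 (55.2% of all tested miRNAs were) and 4 had both 34-day libraries above both of 1 h (15.3% of all). miR-19b-3p was at 51.7 and 22.1 cpm at 1 h and at 87.2 and 84.4 cpm at 34 days, a log2 fold change of 1.21 (SE 0.58) that ran from 0.69 to 1.94 when PLA_E replicate 2 or PLA_E replicate 1, respectively, was left out. miR-19a-3p, of the same seed (GUGCAAA), was at 4.82 and 0.828 cpm at 1 h and at 5.73 and 7.29 cpm at 34 days, and neither passed the test. Both had similar levels in the 34-day libraries, and PLA_E replicate 2 was their lowest. miR-92a-1-5p, at 3.08 and 3.86 cpm at 1 h and 14.7 and 4.19 cpm at 34 days, rested on PLA_A replicate 1 instead, with a log2 fold change of 1.35 and 0.27 without it. The most abundant member, miR-92a-3p, was at 782 and 1178 cpm at 1 h and at 1269 and 976 cpm at 34 days.

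The erythroid miRNAs, made in maturing red cells, had 3 of 4 listed members tested and none differential, with a median log2 fold change of 1.20. With PLA_E replicate 2 left out that median was 0.39, with PLA_A replicate 2 left out 0.66, and with PLA_E replicate 1 left out 1.90. miR-144-5p was at 5.23 and 2.21 cpm at 1 h and at 6.73 and 11.9 cpm at 34 days, a log2 fold change of 1.22 (SE 0.56) with no overlap. miR-144-3p was at 9.65 and 0.828 cpm at 1 h and at 11.7 and 14.0 cpm at 34 days. miR-451-5p, from the same transcript, was at 24.8 and 14.3 cpm at 1 h and at 24.2 and 41.6 cpm at 34 days, and its groups overlapped. In all 3 the lowest library was PLA_E replicate 2 and the highest PLA_A replicate 2.

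The myeloid and inflammation-induced list had 5 of 10 tested members fitted above and 5 below 0, none differential, with a median of -0.17. miR-21-5p, induced in many inflamed and fibrotic tissues, was at 4974 and 4061 cpm at 1 h and at 5311 and 6661 cpm at 34 days, a log2 fold change of 0.41 (SE 0.53). miR-147, induced by Toll-like receptor signals in macrophages, was at 2.55 and 0.552 cpm at 1 h and at 3.74 and 3.10 cpm at 34 days. Both 34-day libraries lay above both of 1 h for 2 of the 10, miR-21-5p and miR-147 (15.3% of all tested miRNAs). They lay below both for 4 (8.91% of all). These 4 were miR-132-3p (log2 fold change -0.86), miR-212-5p (-0.73), miR-146b-5p (-0.58) and miR-223-5p (-0.53), named after their values were seen. The fitted signs of the list therefore held no common direction in this arm.

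The Dlk1-Dio3 cluster was the largest group on the lower side. Of 88 listed members 55 were tested, and the 53 with a RefSeq position lay on chr6:134306550-134579828 of GRCr8. Their fitted changes were below 0 for 51 and above 0 for 4, with a median log2 fold change of -0.62 beside 0.07 for all tested miRNAs, of which 44.8% were fitted below 0. The median of the cluster was -0.32 without PLA_E replicate 2 and between -0.85 and -0.63 without any other single library. By the thresholds 2 of the 55 were differential, both lower, while 2.79% of all tested miRNAs were differential and 0.836% were lower, and nothing is read from so few. Both 34-day libraries lay below both of 1 h for 14 (8.91% of all tested) and above both for 0 (15.3% of all tested). The summed level was 2883 and 5296 cpm at 1 h and 2225 and 2810 cpm at 34 days. The sums did not overlap, but PLA_E replicate 1 was nearer to the 34-day libraries than to PLA_E replicate 2. Between the replicates 2, 53 of the 55 were lower at 34 days, and between the replicates 1, 33 were. In both 31 were lower (56.4%), where 23.96% of all 359 tested were. The members are processed from shared transcripts and are not independent of each other.

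miR-495 was at 3.62 and 3.04 cpm at 1 h and at 1.25 and 1.09 cpm at 34 days, so that both times were close within themselves and did not overlap. The log2 fold change was -1.27 (SE 0.51, unadjusted p = 0.0338, adjusted p = 0.999 in edgeR). With single libraries left out it lay between -1.41 and -1.14 and was differential in none of the 4 fits. miR-409a-5p was at 0.402 and 3.86 cpm at 1 h and at 0.249 and 0 cpm at 34 days. Its log2 fold change of -2.29 (SE 0.90) was -0.71 without PLA_E replicate 2, and with 17 counts at 1 h and 1 at 34 days the ratio of its summed levels was 14.6, with an exact 95% counting interval from 2.28 to 609. miR-485-3p did not pass the test in the main edgeR fit. By the same unadjusted thresholds it passed with limma-voom, with only the 4 placebo libraries and with the replicate number as a term. With 13 counts and 1, it had a ratio of 11.1 (exact interval from 1.67 to 473). These intervals cover counting error only, since amplified reads are not independent molecules.

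Among the other members, miR-127-3p, which lies antisense to Rtl1 and can cleave its message, was at 1167 and 2948 cpm at 1 h and at 737 and 1406 cpm at 34 days. Its groups overlapped and its log2 fold change of -0.94 (SE 0.54) did not pass the test. miR-299a-5p was at 5.76 and 10.8 cpm at 1 h and at 3.74 and 3.46 cpm at 34 days, with no overlap and a log2 fold change of -1.11 (SE 0.53).

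The H19-Igf2 miRNAs, from another imprinted growth locus, were also fitted below 0 in all 4 tested (44.8% of all tested miRNAs were), none differential, with a median log2 fold change of -0.87, and -0.44 without PLA_A replicate 1 or -1.60 without PLA_A replicate 2. miR-483-3p, in an intron of Igf2, was at 14.9 and 13.0 cpm at 1 h and at 3.24 and 10.0 cpm at 34 days, and miR-483-5p was at 5.90 and 7.45 cpm at 1 h and at 0.996 and 4.74 cpm at 34 days. Both were lowest in PLA_A replicate 1. miR-675-3p, cut from the H19 transcript, was at 19.2 and 14.6 cpm at 1 h and at 16.4 and 12.9 cpm at 34 days, with overlapping groups.

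The third of the lower miRNAs, miR-215, is a p53-responsive miRNA best known from intestine and kidney. It was at 10.7 and 1.66 cpm at 1 h and at 0.249 and 0.729 cpm at 34 days. The groups did not overlap, but PLA_E replicate 1 held most of the counts, and the log2 fold change of -2.93 (SE 1.03, unadjusted p = 0.0193, adjusted p = 0.999 in edgeR) was -1.19 without that library. miR-192-5p, of the same seed, was at 575 and 1303 cpm at 1 h and at 544.02 and 1007 cpm at 34 days. It was chosen after its values were seen.

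**Figure D3:**
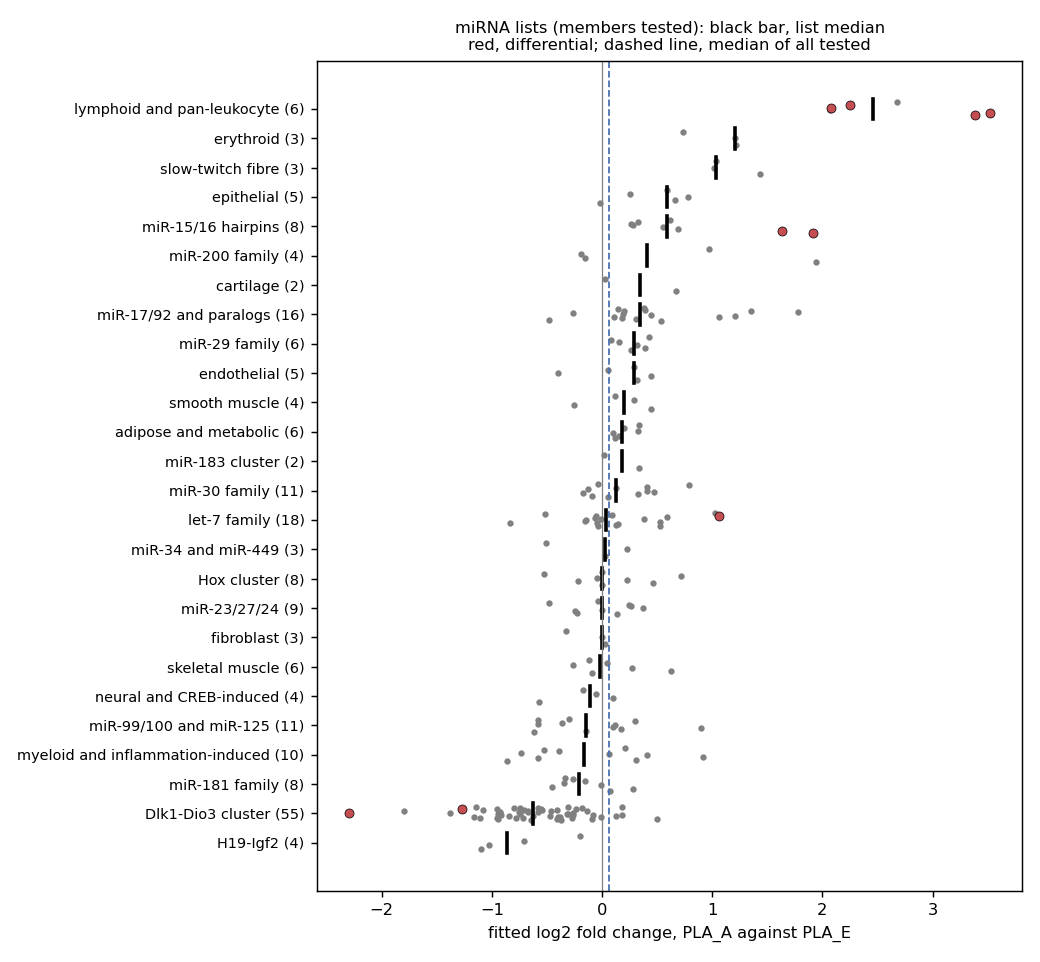
Fitted log2 fold change of PLA_A against PLA_E for the tested members of 26 lists (number tested in parentheses), with black bars for list medians, red points for differential miRNAs and a dashed line for the median of all tested miRNAs (0.07). The lymphoid and pan-leukocyte list lies furthest to the right (median 2.46), and the Dlk1-Dio3 cluster (-0.62) and H19-Igf2 (-0.87) lie furthest to the left.

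The muscle miRNAs did not differ beyond the division between the libraries. miR-133a-3p was at 70519 and 118963 cpm at 1 h and at 89188 and 139388 cpm at 34 days, a log2 fold change of 0.27 (SE 0.50), and miR-1-3p had one of -0.09 (SE 1.53). The median over the 6 tested skeletal muscle miRNAs was -0.02, and it ran from -0.65 without PLA_E replicate 2 to 1.27 without PLA_E replicate 1. The slow-twitch fibre miRNAs, encoded in slow myosin heavy chain genes, had a median of 1.04 over 3 tested members, or -0.45 when PLA_A replicate 1 was dropped. The level of miR-208b-3p was 221.9 and 55.7 cpm at 1 h and 690 and 61.8 cpm at 34 days. Both replicates 1 were above both replicates 2, and the log2 fold change was 1.43 (SE 1.04), or -1.13 without PLA_A replicate 1. Slow-twitch and lymphoid miRNAs were thus both highest of the placebo libraries in PLA_A replicate 1, where the summed slow-twitch level was 1033 cpm against 372, 114 and 142.9 cpm in PLA_E replicates 1 and 2 and PLA_A replicate 2.

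The 10 most abundant miRNAs showed changes below 2-fold. Besides miR-133a-3p and miR-1-3p they were miR-22-3p, miR-10b-5p, miR-30a-5p, miR-143-3p, miR-378a-3p, miR-26a-5p, miR-10a-5p and miR-27b-3p. miR-22-3p was at 104715 and 149382 cpm at 1 h and at 94729 and 177853 cpm at 34 days. miR-10b-5p, from the Hox clusters, was at 70932 and 174474 cpm at 1 h and at 84351 and 127061 cpm at 34 days, and miR-10a-5p was at 15946 and 43452 cpm and at 16719 and 42748 cpm. In these, as in miR-30a-5p (42949, 85749, 47098 and 86665 cpm in the same order of libraries), the replicate number divided the levels and the time did not. miR-26a-5p varied less than these, at 56466 and 52230 cpm at 1 h and 57009 and 59471 cpm at 34 days.

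Among the remaining lists, those of smooth muscle, endothelium and cartilage had medians between 0.20 and 0.35, and each turned below 0 with a single library left out (to -0.29 for smooth muscle without PLA_A replicate 2, -0.15 for endothelium without PLA_E replicate 2 and -0.41 for cartilage without PLA_A replicate 1). miR-143-3p, of smooth muscle, was at 38192 and 101310 cpm at 1 h and at 35742 and 81349 cpm at 34 days. miR-126a-5p, of endothelium, was at 7782 and 10360 cpm at 1 h and at 10380 and 12236 cpm at 34 days, both later libraries being above the earlier ones by a small margin. miR-199a-3p, of fibroblasts, was at 2324 and 2136 cpm at 1 h and at 2249 and 2198 cpm at 34 days. miR-140-3p, of cartilage, was at 408.5 and 436 cpm at 1 h and at 507 and 353 cpm at 34 days. miR-29a-3p, whose family represses collagen messages, was at 1606 and 1402 cpm at 1 h and at 1746 and 2207 cpm at 34 days, and all 6 tested members of that family were fitted above 0 (55.2% of all tested miRNAs were) with a median of 0.29, which was -0.39 without PLA_E replicate 2. None of the members of these lists was differential.

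The epithelial list had a median of 0.59 over 5 tested members, and 0.21 without PLA_A replicate 1. miR-205, of the basal epidermis, was at 61.4 and 22.3 cpm at 1 h and at 52.6 and 47.8 cpm at 34 days. miR-141-3p, of the miR-200 family that maintains epithelial cells, was at 5.23 and 3.04 cpm at 1 h and at 26.7 and 7.66 cpm at 34 days. Neither passed the test, and the log2 fold change of miR-141-3p, 1.94 (SE 1.31), was 0.84 without PLA_A replicate 1. Of the 4 tested members of the miR-200 family 2 were fitted above and 2 below 0, the latter being miR-200a-3p at -0.15 and miR-200b-3p at -0.19, named after their values were seen, and the median of 0.41 was -0.24 without PLA_A replicate 1.

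The study lists 28 names for its placebo groups, of which 8 settle on one tested miRNA. They are from its comparisons with the rats before therapy, not of 34 days with 1 h, and were chosen on these libraries, so they are not independent evidence here. Of the 8, miR-142-5p and miR-142-3p, the arms of one hairpin, were differential here, where 2.79% of all tested miRNAs were. The names that did not settle include miR-409-5p, close in name to the differential miR-409a-5p, and miR-150, given without an arm. They also include miR-410, miR-127, miR-381 and miR-539, whose stems are on the Dlk1-Dio3 list. miR-384-3p was at 1.61 and 0.552 cpm at 1 h and at 3.24 and 2.19 cpm at 34 days, miR-29b-3p at 91.0 and 21.5 cpm and at 65.5 and 75.3 cpm, and miR-6331 at 2.28 and 12.4 cpm and at 1.74 and 2.92 cpm. The groups overlapped for miR-29b-3p, whose highest and lowest libraries were both of 1 h, and for miR-6331. miR-184 was at 3.35 and 3.59 cpm at 1 h and at 4.48 and 2.37 cpm at 34 days.

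**Figure D4:**
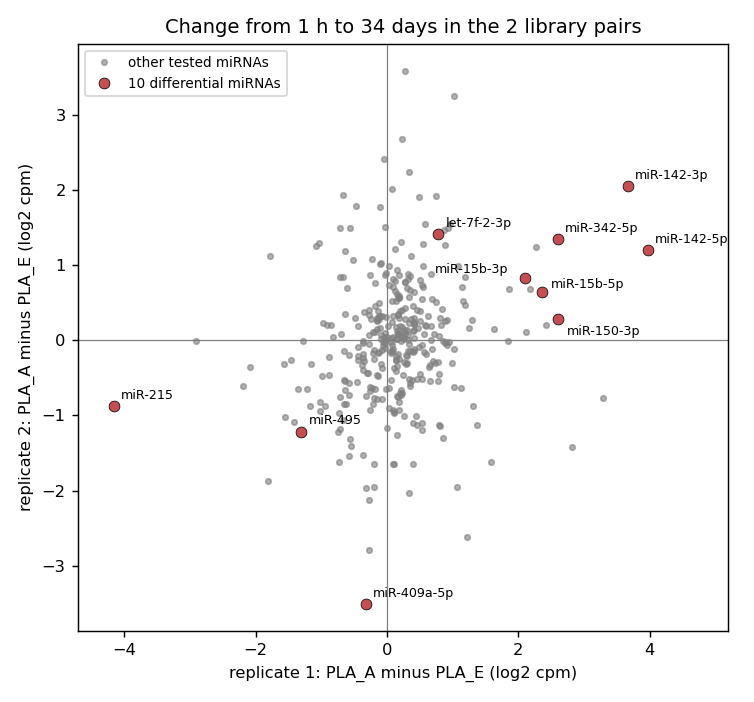
Change from 1 h to 34 days (log2 cpm, PLA_A minus PLA_E) between the replicates 1 (horizontal) and between the replicates 2 (vertical) for the 359 tested miRNAs, with the 10 differential ones in red. The 10 have the same sign in both pairs, as do 59.1% of all 359, but miR-150-3p lies near 0 on the vertical axis and miR-409a-5p near 0 on the horizontal one.

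The same interval was tested in the stimulation arm, which shares no library with the placebo arm. MS_A against MS_E gave 14 differential miRNAs (3.9%), 1 higher and 13 lower (3.62%) at 34 days, and 0 were differential in both arms. Over the 359 miRNAs, which are not independent replicates, the fitted changes of the arms had the same sign for 210 (58.5%), with r = 0.121. The difference between the arms passed the thresholds for 12 miRNAs (3.34%), all with the larger value in the placebo arm, and after adjustment 0 of them passed in edgeR (smallest adjusted p = 0.993). Those 12 are also the number at an unadjusted p under 0.05. miR-142-5p was at 258 and 303 cpm in MS_E and 263 and 226 cpm in MS_A, and its change differed by 3.58 on the log2 scale (SE 1.24), or 1.13 without PLA_A replicate 1, when the difference no longer passed.

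For the lymphoid and pan-leukocyte list the median in the stimulation arm was -0.16, with 2 members fitted above and 4 below 0. For the Dlk1-Dio3 cluster it was -0.92, with 51 of 55 fitted below 0, where 47.4% of all tested miRNAs were. Of the 55, 3 were differential and lower (3.62% of all tested) and 30 had both 34-day libraries below both of 1 h (15.6% of all tested). The summed level of the cluster was 5795 and 5931 cpm in MS_E and 2643 and 3662 cpm in MS_A, while CIA_B libraries held 5659 and 4656 cpm. H19-Igf2 likewise had a median of -1.21 there. The difference between the arms passed the thresholds for none of the 55 cluster members. For let-7f-2-3p the difference between arms was 0.95 (SE 0.63) and for miR-495 -0.56 (SE 0.62), neither past the test.

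**Figure D5:**
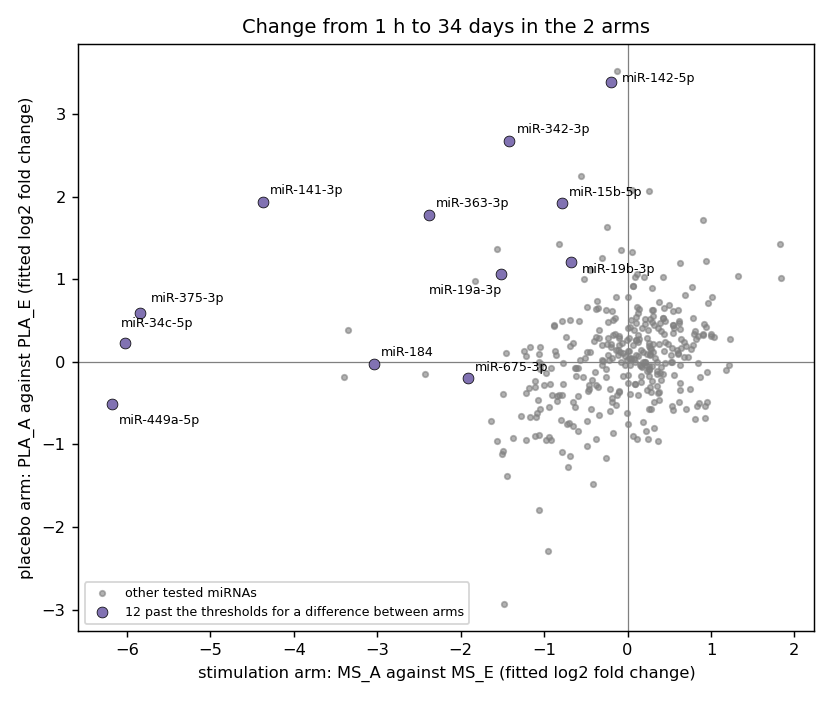
Fitted log2 fold change from 1 h to 34 days in the stimulation arm (horizontal) and in the placebo arm (vertical) for the 359 tested miRNAs, with the 12 past the thresholds for a difference between arms in purple. Part of the 12 lie high on the vertical axis (miR-142-5p, miR-342-3p), and others lie far to the left near 0 of the vertical axis (miR-34c-5p, miR-375-3p, miR-449a-5p, miR-184).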

How the data were processed

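The authors prepared small RNA libraries with the TruSeq kit, called bases with CASAVA 1.8, aligned reads to rn4 and to rat miRBase sequences with Bowtie, and deposited whole-number read counts per mature miRNA and precursor, made with miRDeep2, without normalization. For 35 mature miRNAs with several precursors the largest count was kept. A table of the whole series with 20 value columns that match no label was not used. Counts were fitted with edgeR 4.0.16 (R 4.3.3), TMM factors, a prior count of 2 and a mean for each group over all 10 libraries, which pools the spread over 5 pairs. limma 3.58.1 (voom, the method of the study), DESeq2 1.42.0 and other scalings, filters and subsets were alternatives. The smallest exact two-sided permutation p for 2 libraries against 2 is 0.333, so single miRNAs were not permuted. The test was checked on simulated counts. No 2 libraries of a group were duplicates, as a chi-square test of their counts gave 1562 to 7794 per degree of freedom.

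Named miRNAs were the differential ones, list members that were differential, non-overlapping beyond 2-fold or most abundant, the 10 most abundant miRNAs, names the study lists, and those that differed between arms. The members, lists and tests were chosen with earlier results of these data known. Sequences are from RefSeq, found for 324 of the 359 miRNAs tested.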

Additional observations from a re-analysis of the deposited data

Results flagged for a closer look

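The change from 1 h to 34 days differed between the placebo and the stimulation arm for 12 miRNAs by the interaction test with the same cut-offs, more than 2-fold and unadjusted p below 0.05, and none passed the adjustment in edgeR (adjusted p = 0.993 for each). Differences are log2 changes in the placebo arm minus those in the stimulation arm.

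Of the miRNAs with a placebo change of more than 2-fold, the difference was 3.58 for miR-142-5p, 4.10 for miR-342-3p, 2.70 for miR-15b-5p, 6.31 for miR-141-3p, 4.16 for miR-363-3p, 2.57 for miR-19a-3p and 1.88 for miR-19b-3p. Without PLA_A replicate 1 it was 1.13 for miR-142-5p, 0.29 for miR-342-3p, 1.13 for miR-15b-5p and 2.73 for miR-363-3p, none past the cut-offs. For miR-363-3p it was 2.37 and for miR-19a-3p 1.81 without MS_E replicate 1, and for miR-19b-3p 1.42 without PLA_E replicate 2, all no longer past them. miR-363-3p, of the same seed as miR-92a-3p, was at 8.98 and 4.97 cpm in PLA_E and 42.1 and 8.20 cpm in PLA_A. In the stimulation arm it was at 38.3 and 6.87 cpm in MS_E and 4.98 and 3.17 cpm in MS_A. miR-141-3p was at 220 and 3.44 cpm in MS_E and 5.22 and 4.88 cpm in MS_A, so most of its difference came from MS_E replicate 1, and it was 1.32 without that library.

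For the other 5 the placebo change was below 2-fold. The difference was 6.44 for miR-375-3p, 6.25 for miR-34c-5p, 5.67 for miR-449a-5p, 3.01 for miR-184 and 1.71 for miR-675-3p. miR-34c-5p, a miRNA of ciliated and germ cells, was at 7.91 and 14.9 cpm in PLA_E, 13.0 and 13.7 cpm in PLA_A, 1497 and 6.71 cpm in MS_E and 17.6 and 4.998 cpm in MS_A. miR-449a-5p, of the same seed, was at 258 and 1.25 cpm in MS_E and at most 3.62 cpm in the placebo libraries. Without MS_E replicate 1 the difference was -0.50 for miR-34c-5p and -0.73 for miR-449a-5p. That library also held 4976 counts of miR-202-5p and 455 of miR-34b-5p, against at most 1 and 3 in any other library. Neither was among the tested miRNAs, and both were chosen after their values were seen. The origin of these reads was not tested. miR-375-3p was at 81.2 and 0.156 cpm in MS_E and its difference was 0.08 without MS_E replicate 1. miR-184 was at 39.8 and 5.31 cpm in MS_E and its difference was 0.91 without that library, so neither passed then. miR-675-3p differed from these in that both MS_E libraries were high, at 32.4 and 43.6 cpm, against 8.78 and 10.8 cpm in MS_A, and its difference lay between 1.48 and 1.91 with single libraries left out, past the cut-offs in 4 of those 8 fits.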

How the results depend on the processing

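In place of the 10 differential miRNAs, limma-voom gave 5, of which 3 were among the 10. Library size only gave 4 and a mean of at least 100 counts gave 1, all among the 10. With only the 4 placebo libraries there were 3, of which 2 were shared. The 1 that limma-voom gave there, miR-485-3p, was not among the 10. With the library split (high or low miR-1-3p) as a term there were 17, all 10 among them. The 12 differences between arms became 4 with limma-voom, 7 with library size only and 7 with a mean of at least 100 counts. With a replicate block the counts were 7, of which 6 were among the 10, and 7. The numbers do not pair the samples by any label, and the correlation of replicate deviations was 0.59 between PLA_E and PLA_A but ranged from -0.54 over the pairs of groups. With single libraries left out, the differential count ran from 2 (without PLA_E replicate 2) through 3 (without PLA_A replicate 1) and 18 (without PLA_E replicate 1) to 22 (without PLA_A replicate 2). The count past the adjustment ran from 0 to 1. The count between arms ran from 3 (without MS_E replicate 1), with 4 without PLA_E replicate 2, PLA_A replicate 1 or MS_A replicate 1, to 17 (without MS_E replicate 2), and past the adjustment from 0 to 3. Where an arm kept 1 library, it was assumed to vary like the other groups. The log2 fold change of miR-150-3p ran from -0.14 to 2.80 and reversed without PLA_A replicate 1. Between arms, miR-34c-5p ran from -0.50 to 7.41 and miR-449a-5p from -0.73 to 6.64, and both reversed without MS_E replicate 1. The cause of the other shifts was not tested. miR-142-5p passed in 10 of the 11 other settings that kept every placebo library, and let-7f-2-3p in 2 of 10. Depth limits miR-409a-5p, miR-215, miR-495, miR-342-5p and miR-15b-3p, which hold few counts at one time at least.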

Other observations

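Among miRNAs outside the rule for named miRNAs, chosen after their values were seen, miR-653-5p was at 5.90 and 8.001 cpm at 1 h and at 13.5 and 13.3 cpm at 34 days, nearly equal at 34 days, with a log2 fold change of 0.92 (SE 0.45) that did not pass the test. miR-187-3p was at 2.81 and 12.4 cpm at 1 h and at 5.73 and 35.6 cpm at 34 days, higher in both replicates 2 than in both replicates 1. miR-410-3p, of the Dlk1-Dio3 cluster, was at 34.3 and 129 cpm at 1 h and at 20.4 and 41.9 cpm at 34 days, lower in both pairs of equal number with overlapping groups. Of the miR-181 family 6 of 8 tested members were fitted below 0 (44.8% of all tested miRNAs were, median -0.21, or 0.44 without PLA_E replicate 2), and of the miR-30 family 7 of 11 above 0 (55.2% of all, median 0.13, or -0.12 without PLA_A replicate 2), none differential. miR-34a-5p was at 27.6 and 62.4 cpm at 1 h and at 20.2 and 71.5 cpm at 34 days, and miR-182 at 137.5 and 216 cpm and at 182.3 and 265 cpm, both divided by replicate number and not by time.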
